A study of Mus musculus with 11 samples.

Results

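The genes described here are 7 components of cardiac adrenergic signaling: the receptors Adrb1, Adra1a and Adra1b, the adenylyl cyclases Adcy5 and Adcy6, the receptor kinase Grk5 and the arrestin Arrb1. They were taken by name and matched by gene symbol to the counted genes, so their measured values played no part in the matching. They are 7 of 25006 genes counted, and all 7 were among the 14779 genes that passed the filter on low counts. RNA came from the left ventricle of 11 mice, 1 library per mouse, in 4 groups. The naive groups were Vegfc fl/fl mice (M45 and M44, n = 2) and Vegfc fl/fl ; LysMCre mice (M34, M150 and M149, n = 3). The MI groups were Vegfc fl/fl mice (M38, M006 and M40, n = 3) and Vegfc fl/fl ; LysMCre mice (M35, M913 and M900, n = 3), whose left anterior descending coronary artery had been permanently ligated 9 days earlier. The MI libraries therefore describe infarct tissue, the naive libraries uninjured ventricle matched to it by site and weight, and no sham operation is named. Mouse ages are not given in the sources used here.

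LysMCre is Cre recombinase expressed from the lysozyme 2 (Lyz2) locus, which is active in macrophages, monocytes and neutrophils, so in Vegfc fl/fl ; LysMCre mice the lymphatic growth factor gene Vegfc is meant to be lost in myeloid cells and kept in the others. The controls carry the genotype Vegfc fl/fl in the sample labels and are called LysMCre mice in the extraction notes, and they are named here by the sample labels. They are written as control below, and the Vegfc fl/fl ; LysMCre mice as LysMCre. The question asked of these libraries was how ligation and the myeloid genotype changed expression in the ventricle.

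Noradrenaline from sympathetic nerves and circulating adrenaline act on the heart through beta and alpha receptors. Beta receptors couple through a stimulatory G protein to adenylyl cyclase, whose product cAMP activates protein kinase A and so raises the rate, force and speed of relaxation of the cardiomyocyte. Alpha-1 receptors couple through Gq to phospholipase C and are tied to growth and survival of cardiomyocytes. Receptor kinases and arrestins switch off activated receptors and carry signals of their own, and loss of beta receptors from the failing heart is a classic observation of cardiology.

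Several facts of the libraries bear on every value below. Totals ran from 10824989 to 26782728 counted reads, and 3 reads corresponded to 0.101 to 0.363 CPM, a count scaled to library size with TMM factors, so all 7 genes were read well above that level, with the fewest reads, 12, for Adra1b in MI control mouse M40. The sum of 10 cardiomyocyte markers was 95690 to 126300 CPM in the 5 naive libraries and 3292 to 31560 CPM in the 6 MI libraries, while the sum of 3 atrial markers was 5.26 to 12.5 CPM over all libraries. Vegfc itself was read at 21.9 to 45.5 CPM and did not separate the genotypes. Lyz2, at the locus that carries Cre, was lower in 5 of the 6 LysMCre libraries (12.4 to 1392 CPM) than in the 5 control libraries (2121 to 5380 CPM), but the library labelled naive LysMCre M149 had 4565 CPM, against its label. The 5 naive libraries had 152 to 195 CPM over 4 Y-linked genes and the 6 MI libraries had 0 to 1.85 CPM, with Xist at 0.624 to 11.8 CPM and 188 to 403 CPM, so ligation and this difference cannot be told apart. Nothing in the labels says that the mice of a group were littermates or processed together, and the p-values measure the spread between mice as sampled. In the main fit the 4 groups shared 1 estimate of that spread for each gene. A test among naive hearts therefore also carries the spread between ligated hearts.

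Promoter sequence is shown for the receptors with the largest falls after MI and, beside them, for Grk5, whose change did not pass the test in either genotype. The RefSeq table (GRCm38.p6) held windows for 4 of the 7 genes, namely Adrb1, Adra1b, Adcy5 and Grk5, and each is given as the 250 bases before an annotated start, 5′ to 3′ on the gene's strand. Capitals mark TGACG, the core of the cAMP response element, and the GC box GGGCGG, on either strand. The windows are chr19:56721867-56722116 (plus strand) for Adrb1, chr11:43901238-43901487 and chr11:43836490-43836739 (minus strand) for Adra1b, and chr19:60889499-60889748 (plus strand) for Grk5.
Adrb1: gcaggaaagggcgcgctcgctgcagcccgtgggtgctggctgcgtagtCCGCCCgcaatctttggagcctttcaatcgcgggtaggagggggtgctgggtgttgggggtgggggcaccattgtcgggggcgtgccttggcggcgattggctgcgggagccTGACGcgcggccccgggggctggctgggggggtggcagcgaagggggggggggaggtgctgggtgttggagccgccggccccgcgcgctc
Adra1b, window 1: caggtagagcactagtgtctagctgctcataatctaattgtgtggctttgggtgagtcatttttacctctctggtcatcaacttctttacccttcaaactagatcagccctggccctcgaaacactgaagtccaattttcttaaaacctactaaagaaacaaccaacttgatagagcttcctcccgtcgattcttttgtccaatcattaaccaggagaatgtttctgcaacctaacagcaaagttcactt
Adra1b, window 2: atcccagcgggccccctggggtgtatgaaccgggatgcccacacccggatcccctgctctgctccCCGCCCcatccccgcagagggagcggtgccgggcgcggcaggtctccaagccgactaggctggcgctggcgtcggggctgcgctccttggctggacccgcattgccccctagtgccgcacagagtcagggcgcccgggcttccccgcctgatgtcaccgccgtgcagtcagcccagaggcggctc
Grk5: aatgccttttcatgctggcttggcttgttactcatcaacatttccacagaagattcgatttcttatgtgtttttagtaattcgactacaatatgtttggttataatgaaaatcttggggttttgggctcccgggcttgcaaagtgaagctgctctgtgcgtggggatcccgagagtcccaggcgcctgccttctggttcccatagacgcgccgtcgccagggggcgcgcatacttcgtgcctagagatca

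The windows differed in base composition. The Adrb1 window was 74% G or C with 24 CpG dinucleotides, the second Adra1b window 72.8% with 22, the first Adra1b window 41.6% with 3, and the Grk5 window 49.6% with 13, against a median of 52.4% and 6 CpG over 32851 promoter windows of the same length. The Adcy5 window (chr16:35154614-35154863, plus strand) was 78% G or C and held 32 CpG and 4 GC boxes. TGACG stood once in the Adrb1 window and in none of the other 4, and 17.8% of all windows held it. A GC box was present in the windows of Adrb1 and Adcy5 and in the second of Adra1b, and 32.7% of all windows held one. The full palindrome TGACGTCA (1.55% of all windows), the E-box CANNTG (66.2%) and the MCAT element CATTCC (12.6%) were in none of the 5 windows, all searched on both strands. Counts per gene do not say from which of the annotated starts of Adra1b the reads came.

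After MI, 5 of the 7 genes fell in the control genotype (Adrb1, Adra1a, Adra1b, Adcy5 and Adcy6), Arrb1 rose, and Grk5 did not pass the test. In LysMCre mice the same was found for 4 that fell and for Arrb1, while neither Adra1a nor Grk5 passed. Of all 14779 genes tested, 24.1% were called lower and 26.3% higher after MI in controls, and 27.7% lower and 30.0% higher in LysMCre mice, and 21.2% were lower in both genotypes and 21.2% higher in both. Adra1b had the largest change of the 7, 11.9-fold in controls and 11.6-fold in LysMCre mice. The median change over all genes tested was 0.13 in controls and 0.10 in LysMCre mice on the log2 scale. Naive and MI groups did not overlap for 72.1% of all genes tested in controls and for 64.3% in LysMCre mice. These shares stand beside each statement below that the naive and ligated hearts did not overlap for a gene. The share over both genotypes together was not computed. In bulk tissue, fewer cells of a type and less RNA per cell cannot be told apart.

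**Figure D1:**
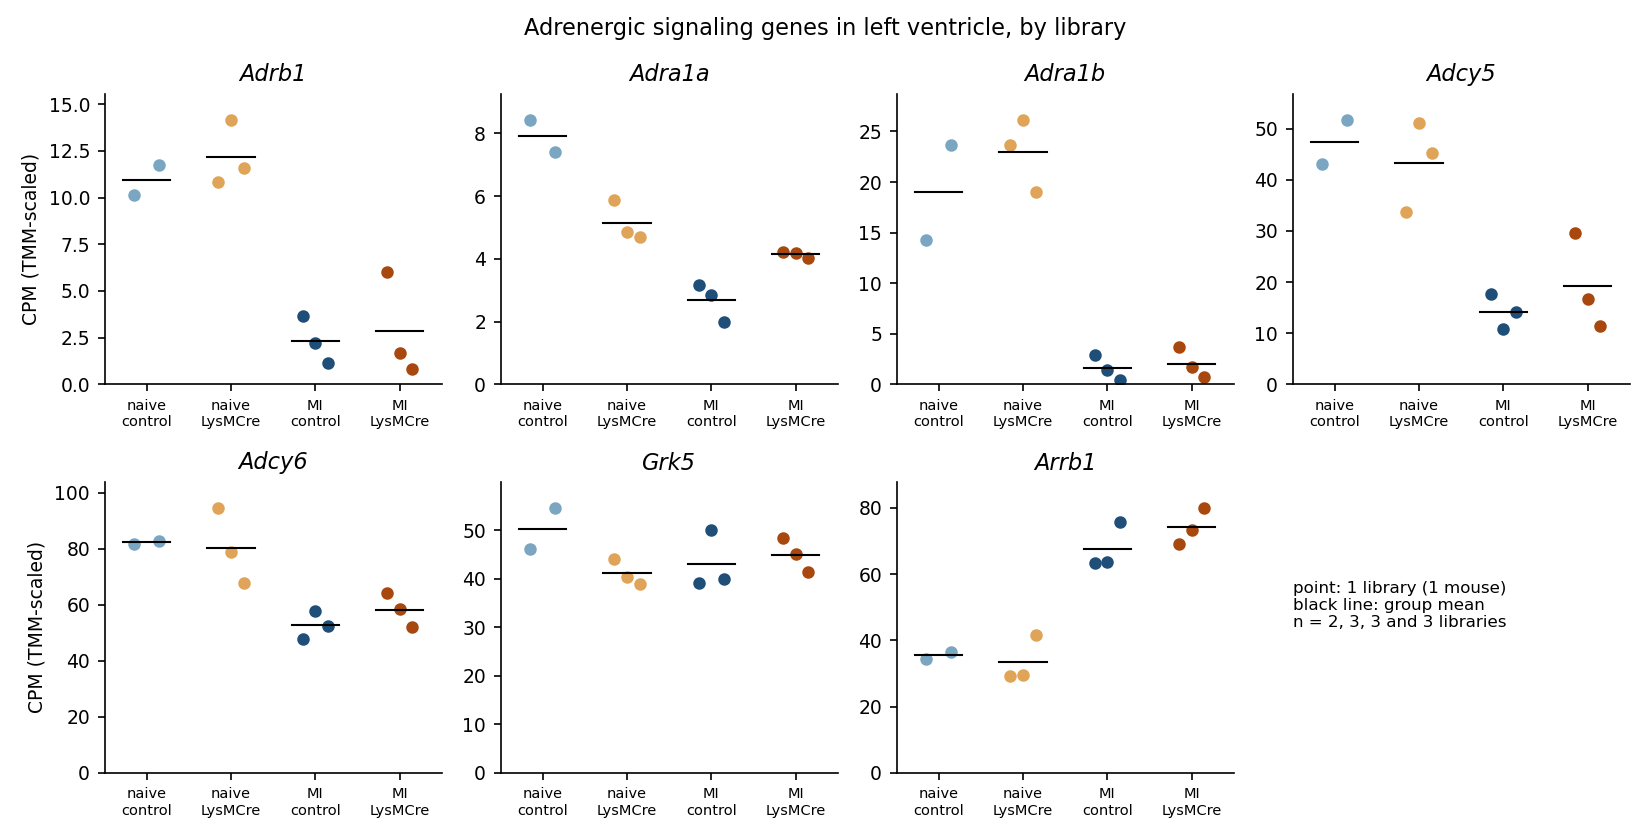
Each point is the TMM-scaled CPM of 1 library (1 mouse) on a linear axis from 0, in naive control (n = 2), naive LysMCre (n = 3), MI control (n = 3) and MI LysMCre (n = 3) hearts, and black lines are group means. Adrb1, Adra1a, Adra1b, Adcy5 and Adcy6 sit lower and Arrb1 higher in all MI libraries than in all naive libraries, and the Grk5 points of the groups overlap. Of all genes tested, 72.1% in controls and 64.3% in LysMCre mice had naive and MI groups that did not overlap.

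Adrb1 (ENSMUSG00000035283, chr19:56722199-56733113 on GRCm38, plus strand) encodes the beta-1 receptor, the main beta receptor of the cardiomyocyte. It was read at 10.1 and 11.8 CPM in the naive control mice M45 and M44 and at 10.8, 14.2 and 11.6 CPM in the naive LysMCre mice M34, M150 and M149. After MI it was at 3.65, 2.21 and 1.14 CPM in the controls M38, M006 and M40 and at 5.99, 1.66 and 0.839 CPM in the LysMCre mice M35, M913 and M900. The naive and MI libraries did not overlap, and M35 was the highest and M900 the lowest of the ligated hearts. Adrb1 fell by 2.22 on the log2 scale in controls (SE 0.667, 4.67-fold, adjusted p = 0.0184, Benjamini-Hochberg adjustment of edgeR's quasi-likelihood p) and by 2.13 in LysMCre mice (SE 0.623, 4.38-fold, adjusted p = 0.0141). The call in controls was lost without M45 (edgeR adjusted p = 0.0593), M44 (0.079), M006 (0.0521) or M40 (0.0513), and the call in LysMCre mice without M913 (0.0603), with the direction kept each time.

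Adra1b (ENSMUSG00000050541, chr11:43774606-43901210, minus strand) encodes the alpha-1B receptor, one of the pair of alpha-1 subtypes that mouse cardiomyocytes use. Its naive levels were 14.3 and 23.6 CPM in the controls M45 and M44 and 23.7, 26.1 and 19.0 CPM in the LysMCre mice M34, M150 and M149. After MI they were 2.87, 1.40 and 0.440 CPM in M38, M006 and M40 and 3.64, 1.74 and 0.671 CPM in M35, M913 and M900. Every ligated heart was far below every naive heart, and the lowest, M40, rested on 12 reads. Adra1b fell by 3.57 on the log2 scale in controls (SE 0.679, 11.9-fold, edgeR adjusted p = 0.00201) and by 3.54 in LysMCre mice (SE 0.646, 11.6-fold, edgeR adjusted p = 0.00112).

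Adra1a (ENSMUSG00000045875, chr14:66635251-66771168, plus strand) encodes the alpha-1A receptor, the other cardiomyocyte alpha-1 subtype. It was at 8.43 and 7.40 CPM in the naive controls M45 and M44 and at 5.86, 4.84 and 4.71 CPM in the naive LysMCre mice M34, M150 and M149. In ligated hearts it was at 3.18, 2.85 and 1.98 CPM in the controls M38, M006 and M40 and at 4.23, 4.18 and 4.03 CPM in the LysMCre mice M35, M913 and M900. The 3 ligated LysMCre hearts lay within a narrow band, below the 3 naive LysMCre hearts and above the 3 ligated controls. Adra1a fell by 1.57 on the log2 scale in controls (SE 0.251, 2.96-fold, edgeR adjusted p = 0.000895). In LysMCre mice its change was -0.31 (SE 0.23, 95% interval -0.82 to 0.198, edgeR adjusted p = 0.265), which did not pass although the groups did not overlap, as was so for 64.3% of all genes tested in that comparison and 72.1% in the comparison of controls.

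The 3 receptors therefore changed by unequal amounts. The ratio of Adra1a to Adra1b reads within a library was 0.187 to 0.590 in naive hearts and 1.11 to 5.85 in ligated hearts, a shift of 2.90 on the log2 scale (exact permutation test within genotype, two-sided, p = 0.01, adjusted p = 0.02 over the 6 ratios computed). The ratio of Adrb1 to Adra1b went from 0.458 to 0.710 in naive hearts up to 0.953 to 2.52, a shift of 1.38 (exact permutation p = 0.005, the smallest that the 200 arrangements allow, adjusted p = 0.02). The ranges did not overlap for either ratio, and each call was kept with every single library left out in turn.

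**Figure D2:**
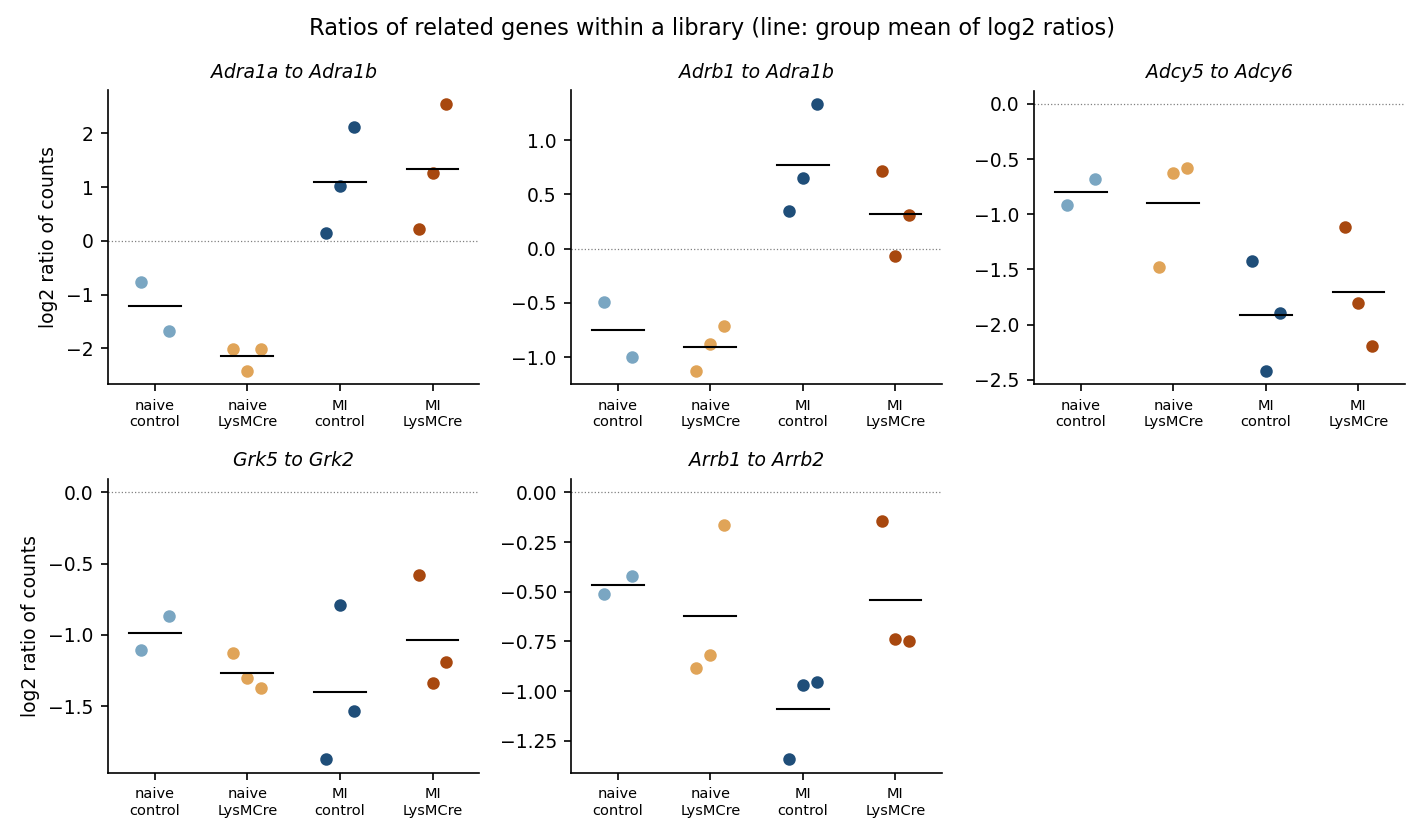
Each point is the log2 ratio of the read counts of 2 genes in 1 library (0.5 added to each count), with a black line at the group mean and a dotted line at equal counts where it is in view. The ratio of Adra1a to Adra1b is at most 0.590 in all naive libraries and at least 1.11 in all MI libraries, and the ratios of Grk5 to Grk2 and of Arrb1 to Arrb2 overlap between naive and MI.

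Adcy5 and Adcy6 encode the main adenylyl cyclases of the heart, which make cAMP when the stimulatory G protein is active. Adcy5 (ENSMUSG00000022840, chr16:35154877-35305738, plus strand) was at 43.1 and 51.7 CPM in naive controls M45 and M44 and at 33.8, 51.1 and 45.2 CPM in naive LysMCre mice M34, M150 and M149. After MI it was at 17.7, 10.8 and 14.1 CPM in M38, M006 and M40 and at 29.6, 16.7 and 11.3 CPM in M35, M913 and M900. No ligated heart reached the lowest naive heart, M34, although M35 came close to it. Adcy5 fell by 1.74 on the log2 scale in controls (SE 0.351, 3.34-fold, edgeR adjusted p = 0.00271) and by 1.18 in LysMCre mice (SE 0.322, 2.26-fold, edgeR adjusted p = 0.01).

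Adcy6 (ENSMUSG00000022994, chr15:98589973-98610076, minus strand) was at 81.6 and 82.8 CPM in naive controls M45 and M44 and at 94.3, 78.8 and 67.9 CPM in naive LysMCre mice M34, M150 and M149. In ligated hearts it was at 47.6, 57.7 and 52.5 CPM in M38, M006 and M40 and at 64.2, 58.5 and 52.0 CPM in M35, M913 and M900. The groups did not overlap, but the ligated heart M35 lay close to the naive heart M149. Adcy6 fell by 0.64 on the log2 scale in controls (SE 0.158, 1.56-fold, edgeR adjusted p = 0.00701) and by 0.46 in LysMCre mice (SE 0.143, 1.38-fold, edgeR adjusted p = 0.0178). The call in LysMCre mice was lost without M34 (edgeR adjusted p = 0.0761), without M900 (0.0563), or when only those 6 libraries were fitted (0.0536). The ratio of Adcy5 to Adcy6 was 0.358 to 0.666 in naive and 0.187 to 0.462 in ligated hearts, a shift of -0.96 on the log2 scale with overlapping ranges (exact permutation p = 0.02, adjusted p = 0.03), and without M44 the exact permutation p was 0.05.

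Grk5 (ENSMUSG00000003228, chr19:60889749-61095968, plus strand) encodes a kinase that phosphorylates activated receptors and so uncouples them. It was at 46.1 and 54.5 CPM in naive controls M45 and M44 and at 44.03, 40.4 and 38.8 CPM in naive LysMCre mice M34, M150 and M149. After MI it was at 39.2, 50.01 and 40.03 CPM in M38, M006 and M40 and at 48.3, 45.1 and 41.5 CPM in M35, M913 and M900. All 4 groups lay between 38.8 and 54.5 CPM, and the naive and MI libraries overlapped in both genotypes. The change was -0.22 on the log2 scale in controls (SE 0.144, 95% interval -0.545 to 0.096, edgeR adjusted p = 0.217) and 0.13 in LysMCre mice (SE 0.13, 95% interval -0.16 to 0.418, edgeR adjusted p = 0.415). The gene overlaps Zfp950 on the opposite strand, and since the strand setting of the counting is not given in the sources used here, reads of the shared stretch are uncertain. The ratio of Grk5 to Grk2, the other main receptor kinase of the heart, shifted by -0.091 on the log2 scale (exact permutation p = 0.725), and without M38 by 0.027.

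Arrb1 (ENSMUSG00000018909, chr7:99535466-99606771, plus strand) encodes beta-arrestin 1, which binds phosphorylated receptors, blocks further G protein coupling and is found in most cell types. It was at 34.4 and 36.6 CPM in naive controls M45 and M44 and at 29.3, 29.5 and 41.5 CPM in naive LysMCre mice M34, M150 and M149. In ligated hearts it was at 63.5, 63.7 and 75.6 CPM in M38, M006 and M40 and at 69.1, 73.5 and 79.8 CPM in M35, M913 and M900. Every ligated heart was above every naive heart, and M149, the library that goes against its label, was the highest of the naive ones. Arrb1 rose by 0.93 on the log2 scale in controls (SE 0.173, 1.90-fold, edgeR adjusted p = 0.00178) and by 1.15 in LysMCre mice (SE 0.152, 2.22-fold, edgeR adjusted p = 0.000185), and without M149 by 1.33 (edgeR adjusted p = 0.000154). The ratio of Arrb1 to Arrb2, the other arrestin outside the retina, shifted by -0.27 on the log2 scale with overlapping ranges (exact permutation p = 0.27).

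Per kilobase of exon, the order of the 7 genes differed between naive and ligated hearts. In the 5 naive hearts Adcy6 stood first, at a median of 12.0 CPM per kb (10.01 to 13.9), above the ranges of all others. Adra1b (6.99), Adcy5 (6.29) and Grk5 (6.24) came next with overlapping ranges, then Adrb1 (3.42) and Arrb1 (3.08), which also overlapped, and Adra1a was last at 0.671 (0.539 to 0.966). In the 6 ligated hearts Adcy6 (8.13), Arrb1 (6.38) and Grk5 (6.14) led, with ranges that overlapped from one to the next. Adcy5 followed at 2.14, with its lowest library within the range of Adrb1, and Adrb1 (0.571), Adra1b (0.464) and Adra1a (0.413) formed an overlapping group at the end. Adra1b was thus second by its median in naive hearts and sixth after MI.

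The levels of the 7 genes were set beside the cardiomyocyte markers library by library. Within the 6 ligated hearts the marker sum ran from 31560 CPM in M35 through 20360 in M38, 15140 in M006, 15130 in M913 and 7132 in M900 to 3292 in M40. Adra1b followed nearly the same order, with M913 and M006 exchanged, and Adrb1 followed it with M40 and M900 exchanged. Spearman's rho between gene and marker sum over these 6 libraries was 0.943 for Adrb1 and for Adra1b, 0.6 for Adcy5, 0.543 for Adra1a, 0.314 for Adcy6 and for Grk5, and -0.771 for Arrb1, given as a description, since the points share library scaling. The sum of 7 fibroblast markers moved the other way, from 4464 to 6188 CPM in naive hearts to 28260 to 45210 CPM in ligated hearts. Of these 7 markers, 5 rose in controls and 6 in LysMCre mice. In controls Dcn (0.020, edgeR adjusted p = 0.958) and Pdgfra (0.58, edgeR adjusted p = 0.0929) did not pass. The 5 sympathetic nerve and Schwann cell markers summed to 15.6 to 26.8 CPM in naive and 4.32 to 14.3 CPM in ligated hearts. Within controls the sums of macrophage markers (1552 to 1629 CPM naive, 2645 to 4728 CPM after MI), neutrophil markers (20.3 to 36.7 and 46.7 to 345.5 CPM) and smooth muscle and pericyte markers (1809 to 1997 and 2089 to 3095 CPM) were higher in every ligated heart, and that of endothelial markers lower (1161 to 1189 and 468 to 1020 CPM). Within LysMCre mice the endothelial sum was again lower in every ligated heart (956 to 1335 and 677 to 835 CPM), and the other 3 sums overlapped. For macrophage markers the overlap rested on M149 (2150 CPM), the library that goes against its label. The naive mice M34 (1420 CPM) and M150 (1396 CPM) were below the lowest ligated heart, M35 (1921 CPM). By gene, 4 of 7 macrophage markers rose in each genotype, as did 4 of 7 smooth muscle and pericyte markers while 2 of those fell. Of the 5 neutrophil markers, 0 passed the test in controls and 1 rose in LysMCre mice. The neutrophil sum of 345.5 CPM was that of M40 alone, with 60.4 CPM in M38 and 46.7 CPM in M006. Of the 6 endothelial markers, 0 rose and 1 fell in controls, and 1 rose and 2 fell in LysMCre mice, so they did not fall as a group. The part of these cell types in the changes of the 7 genes was not tested.

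**Figure D3:**
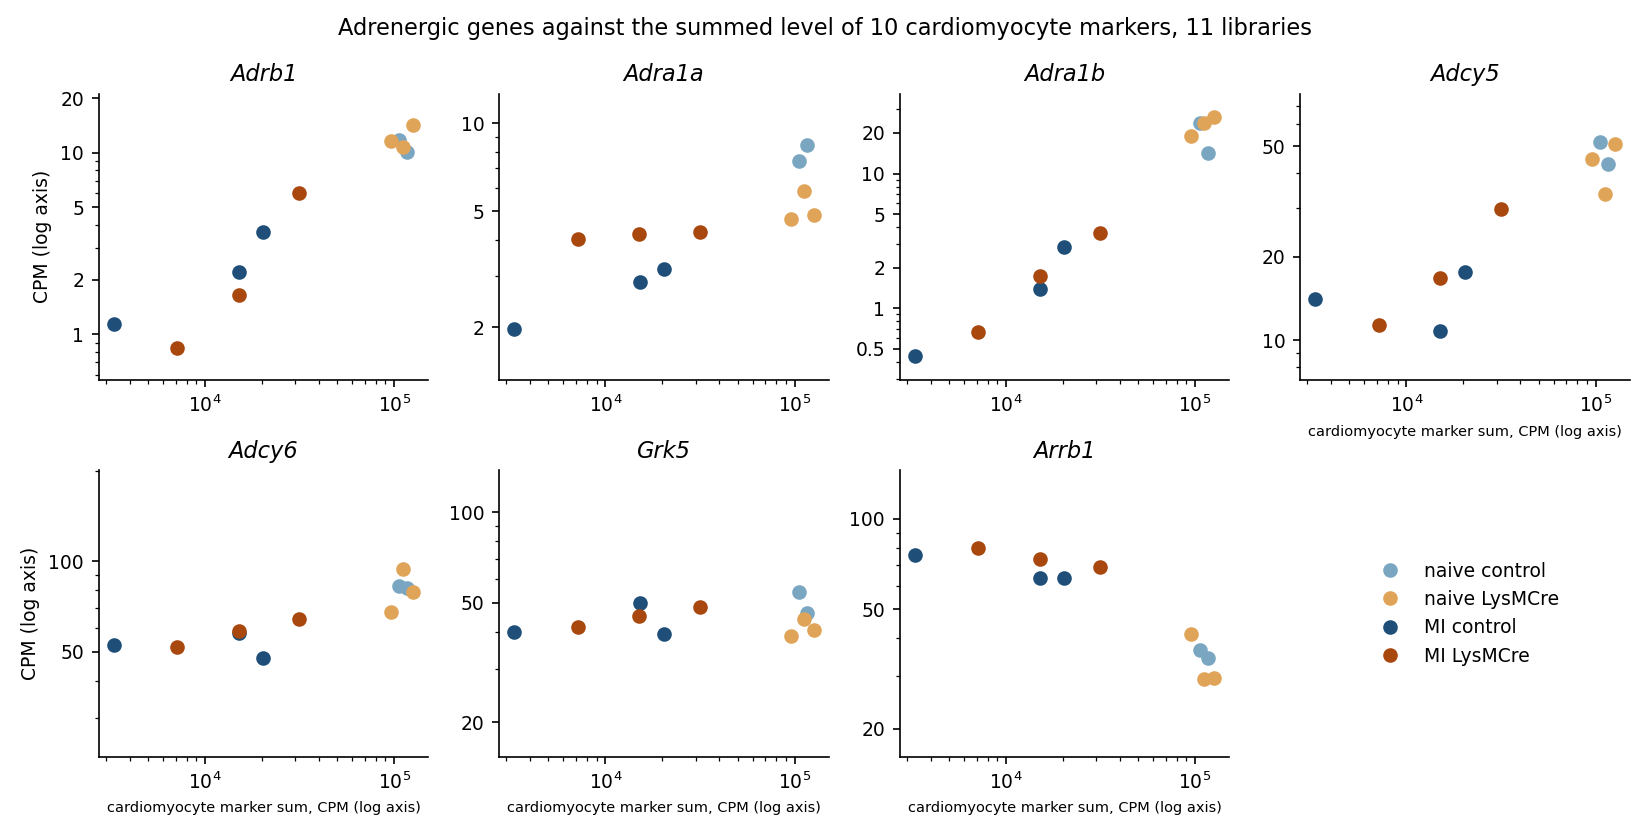
Each point is 1 of 11 libraries, with the summed CPM of 10 cardiomyocyte markers on the horizontal log axis and the gene's CPM on the vertical log axis, colored by group. Adrb1 and Adra1b decline along with the marker sum among the MI libraries, the 3 MI LysMCre points of Adra1a stay between 4.03 and 4.23 CPM, and Arrb1 is highest where the marker sum is low.

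Expressed per 10000 CPM of summed cardiomyocyte markers, Adra1b was 1.23 to 2.24 CPM in naive and 0.924 to 1.41 CPM in ligated hearts, and the ranges overlapped. Adrb1 on the same scale was 0.872 to 1.21 CPM in naive and 1.10 to 3.46 CPM in ligated hearts, which also overlapped, while Arrb1 was 2.34 to 4.33 and 21.9 to 230 CPM. When the fit itself was scaled to these markers, no fall of the 7 genes passed the test. Adra1b changed by -0.50 in controls (SE 0.989, edgeR adjusted p = 0.623) and -0.92 in LysMCre mice (SE 0.897, edgeR adjusted p = 0.323), and Adrb1 by 1.15 (SE 1.03, edgeR adjusted p = 0.278) and 0.34 (SE 0.891, edgeR adjusted p = 0.717). Grk5 rose on this scale by 3.67 in controls (SE 1.11, edgeR adjusted p = 0.00174) and 3.20 in LysMCre mice (SE 0.919, edgeR adjusted p = 0.00115).

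That scaling moved genes as a whole. The median over all genes became 4.07 in controls and 3.23 in LysMCre mice, with 0.0677% of genes called lower and 90.2% higher in controls, and 0.108% lower and 84.8% higher in LysMCre mice. How much of the fall of each gene went with the loss of cardiomyocyte RNA was not tested.

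**Figure D4:**
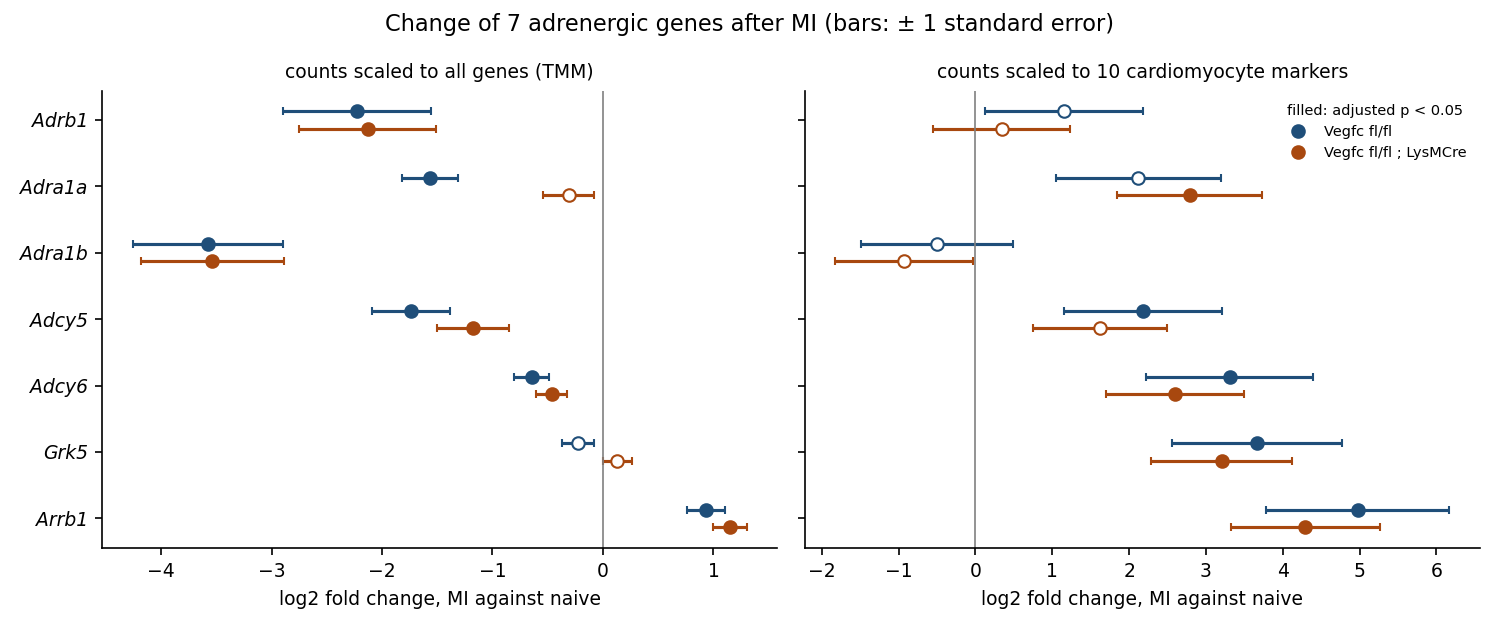
Points are log2 fold changes of MI against naive for the 7 genes in Vegfc fl/fl (blue) and Vegfc fl/fl ; LysMCre (orange) mice, bars are 1 standard error to each side, and filled points have an adjusted p below 0.05. With counts scaled to all genes (left) Adra1b lies near -3.57 and -3.54, and with counts scaled to 10 cardiomyocyte markers (right) at -0.50 and -0.92 with open points.

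The genotype comparison asked whether the LysMCre genotype changed these genes. Among ligated hearts none of the 7 genes passed the test (0 of 7, by edgeR's quasi-likelihood test after Benjamini-Hochberg adjustment; 0% of the 14779 genes passed), and DESeq2 and limma-voom also called 0 of the 7, with no adjusted p from DESeq2 for Adrb1, Adra1a and Adra1b. One of the 7, Adra1a, had an unadjusted p under 0.05, as 7.94% of all genes did. It was 1.55-fold higher in LysMCre hearts (log2 difference 0.63, SE 0.228, 95% interval 0.128 to 1.14, edgeR adjusted p = 0.584), and the groups did not overlap, as in 12.1% of all genes. The intervals of the other 6 all held 0 and were wide for the receptors, -1.13 to 1.61 for Adrb1 and -1.12 to 1.74 for Adra1b, and narrower for Adcy6 (-0.168 to 0.462), Grk5 (-0.224 to 0.348) and Arrb1 (-0.196 to 0.462).

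Among naive hearts 0 of 7 genes passed as well (0% of all genes by edgeR, with 0 of the 7 by DESeq2 and by limma-voom). Adra1a was again the gene with an unadjusted p under 0.05, as were 3.38% of all genes, and here it was lower in LysMCre mice, by -0.62 (SE 0.254, 95% interval -1.18 to -0.0584, edgeR adjusted p = 1), or by -0.56 without M149 (edgeR adjusted p = 0.803). Adra1a and Grk5 were the members whose naive groups did not overlap, against 22.4% of all genes, and Grk5 differed by -0.29 (SE 0.145, edgeR adjusted p = 1).

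The difference between the genotypes in their response to MI was tested as an interaction, and 0 of 7 genes passed (0% of all genes by edgeR, and 0 of the 7 by DESeq2 and limma-voom). Adra1a had the largest difference, 1.25 on the log2 scale, in the direction of a smaller fall in LysMCre mice (SE 0.341, 95% interval 0.498 to 2.01, edgeR adjusted p = 0.534). Its unadjusted edgeR p was 0.00401, and 8.3% of all genes had one under 0.05. With each library left out in turn the Adra1a difference ranged from 1.08 to 1.44, and without M149 it was 1.19 (edgeR adjusted p = 0.303). The fall of Adra1a in controls and its absence from the calls in LysMCre mice are therefore not shown to differ. For Adrb1 and Adra1b the interaction was 0.094 (95% interval -1.9 to 2.09) and 0.038 (95% interval -1.92 to 2.00), so differences of several-fold in either direction were not detectable at this size of study.

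The wider pathway was followed with a list of 65 other genes, of which 61 passed the filter. After MI 19 rose, 27 fell and 15 did not pass in controls, and 20 rose, 26 fell and 15 did not pass in LysMCre mice, with 22 lower and 17 higher in both genotypes. The matching shares of all genes tested were 26.3% risen and 24.1% fallen in controls, 30.0% and 27.7% in LysMCre mice, and 21.2% lower and 21.2% higher in both. Without M45, 29 of the genes were called in controls. The list's median change was -0.40 in controls and -0.24 in LysMCre mice, beside 0.13 and 0.10 over all genes tested. Between the genotypes 0 of 61 passed in ligated and 0 in naive hearts by edgeR, with 3 and 1 at an unadjusted p under 0.05, beside 7.94% and 3.38% of all genes. DESeq2 called 1 of them among ligated hearts, Prkca, a protein kinase C, at 0.56 (DESeq2 adjusted p = 0.0186), where DESeq2 called 62 of all 14779 genes.

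**Figure D5:**
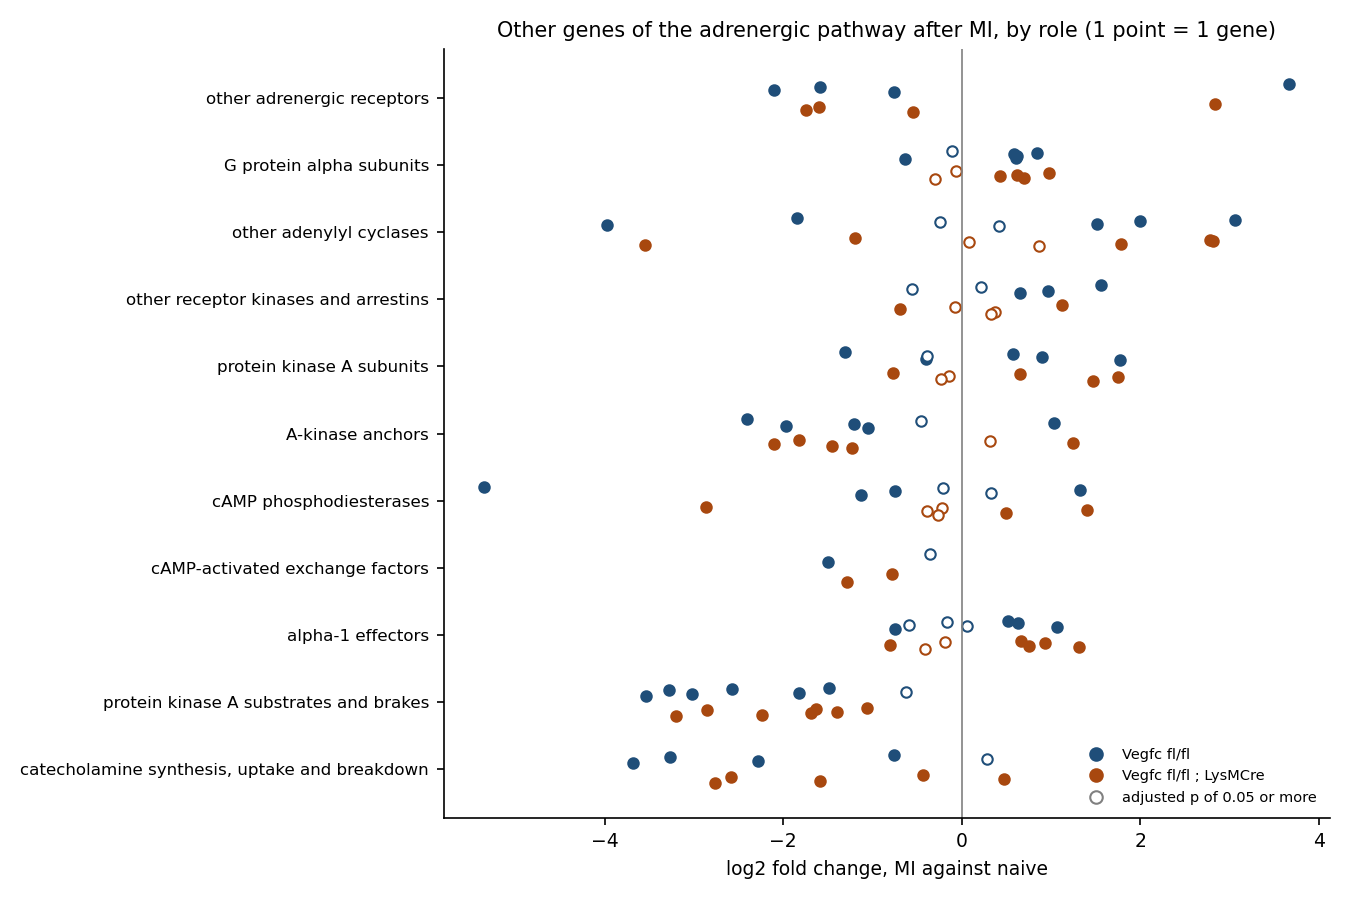
Each point is the log2 fold change of MI against naive for 1 gene of the 61 tested, in Vegfc fl/fl (blue) and Vegfc fl/fl ; LysMCre (orange) mice, arranged by role, with open points where the adjusted p was 0.05 or more. All called genes among the protein kinase A substrates lie below 0. The other adenylyl cyclases lie on both sides of 0, with Adcy2 at 3.07 in controls. The lowest of them is Adcy8, whose position rests on MI levels near 3 reads.

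Of the 6 other receptors listed, Adrb3 and Adra1d did not pass the filter. The alpha-2 receptor Adra2b fell in both genotypes (-1.59 and -1.60). Adra2c fell in both as well, from 0.392 to 1.46 CPM in naive hearts to 0.135 to 0.294 CPM in ligated hearts. That is near the level of 3 reads, so no fold is given for Adra2c. Adra2a rose in both genotypes from 0 to 0.407 CPM in naive hearts to 0.541 to 1.72 CPM in ligated hearts, close to the level of 3 reads.

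The 6 G protein alpha subunits moved apart. Gnas, which encodes the stimulatory subunit that links beta receptors to the cyclases, fell by 0.64 in controls (SE 0.209, edgeR adjusted p = 0.0267), and its change in LysMCre mice, -0.30, did not pass (edgeR adjusted p = 0.201). The inhibitory subunits Gnai1 (0.85 and 0.98) and Gnai3 (0.62 and 0.43) and the Gq subunit Gnaq (0.61 and 0.70) rose in both genotypes.

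Among the 7 other adenylyl cyclases, 3 rose and 2 fell in each genotype. Adcy2 rose by 3.07 in controls (SE 0.552, edgeR adjusted p = 0.00154) and 2.78 in LysMCre mice, and Adcy3 by 2.00 and 2.82. Both rose from low naive levels, at most 1.61 CPM for Adcy2 and 4.01 CPM for Adcy3. Adcy7 rose from a higher level, 40.8 to 55.6 CPM in naive hearts, to 134 to 181 CPM in ligated hearts. Its change was 1.52 in controls (edgeR adjusted p = 0.000181) and 1.78 in LysMCre mice (edgeR adjusted p = 3e-05). Adcy8 fell in both genotypes, from 0.624 to 2.17 CPM in naive hearts to at most 0.161 CPM in ligated hearts, which is near the level of 3 reads, so no fold is given. Beside the falls of Adcy5 and Adcy6, the cyclases as a family thus did not move in 1 direction.

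Of the 5 other receptor kinases and arrestins, 3 rose and 0 fell in controls, and 1 rose and 1 fell in LysMCre mice. Arrb2 rose by 1.56 in controls (SE 0.23, edgeR adjusted p = 0.000593) and 1.13 in LysMCre mice, in the same direction as Arrb1. Grk2 did not pass in either genotype, at 0.22 (95% interval -0.281 to 0.716) and -0.077 (95% interval -0.521 to 0.366).

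Downstream of cAMP, the catalytic subunit Prkaca of protein kinase A fell by 1.31 in controls (SE 0.169, edgeR adjusted p = 0.000351) and by 0.77 in LysMCre mice, while the other catalytic subunit, Prkacb, rose (0.57, edgeR adjusted p = 0.00569, and 0.65, edgeR adjusted p = 0.0011). The regulatory subunits Prkar2b (1.77 and 1.48) and Prkar1b (0.91 and 1.75) rose as well, and Prkar2a fell in controls (-0.40, edgeR adjusted p = 0.0381), so neither kind of subunit moved in 1 direction. The anchors that hold protein kinase A at its targets fell in 4 of 6 cases in each genotype, among them Akap1 (-2.41 and -1.82), Akap5 (-1.21 and -2.10) and Akap6 (-1.97 and -1.45). Of the 6 phosphodiesterases, which break down cAMP, 1 rose and 3 fell in controls, and 2 rose and 1 fell in LysMCre mice. Pde3b rose in both genotypes (1.33 and 1.40). Pde4a (-0.75, edgeR adjusted p = 0.011) and Pde4d (-1.13, edgeR adjusted p = 0.00683) fell in controls, and Pde4b rose in LysMCre mice (0.49, edgeR adjusted p = 0.0066). Pde2a fell in both genotypes, from 0.326 to 1.52 CPM to at most 0.353 CPM, again near the level of 3 reads. Rapgef4, an exchange factor activated by cAMP without protein kinase A, fell by 1.50 in controls and by 1.28 in LysMCre mice.

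The 7 protein kinase A substrates and brakes had the lowest median change of the roles, -2.58 in controls and -1.69 in LysMCre mice, with 6 called lower in controls and 7 in LysMCre mice. They included Tnni3, cardiac troponin I (-3.54 and -3.20), Pln, phospholamban, which restrains calcium uptake (-3.28 and -2.85), and Ryr2, the calcium release channel (-3.02 and -2.24). None of these 7 genes is among the 10 cardiomyocyte markers, of which 10 fell in controls and 9 in LysMCre mice. The median change of those markers was -2.99 in controls and -2.35 in LysMCre mice. How much of the fall of the 7 genes went with the loss of cardiomyocyte RNA was not tested. Of the 7 effectors of the alpha-1 receptors, 3 rose and 1 fell in controls, and 4 rose and 1 fell in LysMCre mice, with a median change of 0.05 and 0.66. Prkcd (1.07 and 1.32), Plcb3 (0.63 and 0.94) and Itpr2 (0.52 and 0.66) rose in both genotypes, Prkce fell in controls (-0.75, edgeR adjusted p = 0.00835), and Plcb4 fell in LysMCre mice (-0.81, edgeR adjusted p = 0.0113).

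Genes that supply and clear catecholamines mostly fell. Of 7 listed, Th and Slc6a2 did not pass the filter. Of the 5 others, 4 fell and 1 was not called in controls, and 4 fell and 1 rose in LysMCre mice. Dbh, which makes noradrenaline, fell by 3.27 in controls (SE 0.464, edgeR adjusted p = 0.000516) and by 2.59 in LysMCre mice, from 6.75 to 15.1 CPM in naive hearts to 0.697 to 2.40 CPM in ligated hearts. Slc22a3, an extraneuronal transporter (-3.69 and -2.76), and Maob, a monoamine oxidase (-2.29 and -1.59), fell as well.

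The genes whose log2 levels followed each of the 7 most closely over the 11 libraries were listed as a description, since all such values carry the difference between naive and ligated hearts. Nearest to Adrb1 were Cycs (Pearson's r 0.987), Gpr22 (0.986) and Fgf13 (0.984), and nearest to Adra1b were Kcng2 (0.996), Hfe2 (0.995) and Gja3 (0.995). Adra1a had Pm20d2 (0.962), Dennd5a (0.955) and Aqp8 (0.945), and Adcy5 had Scn4a (0.981), Abcb6 (0.978) and Dsg2 (0.978). Adcy6 had Dlc1 (0.976), Lrrtm3 (0.973) and Ackr3 (0.97), and Arrb1 had Timp2 (0.998), B4galt7 (0.996) and Fam168b (0.994). The nearest genes of Grk5 were less close, Rundc1 at 0.931, Tie1 at 0.894 and Ezh1 at 0.856.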

How the data were processed

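Stranded mRNA libraries (TruSeq) from 11 left ventricles were sequenced on an Illumina instrument. The deposited files hold whole-number counts of reads per Ensembl gene, made by the authors and not normalized. The submitters' processing notes name cutadapt 1.13, STAR, HTSeq 0.6.1p1, DESeq2 1.14.1 and the build mm10, while the strand setting is not given in the sources used here. Symbols, positions and exon lengths came from GENCODE M21 on GRCm38, the same build. Groups were taken from the sample labels. All 11 libraries were fitted together in edgeR 4.0.16 (R 4.3.3) with filterByExpr, TMM scaling and the quasi-likelihood test, and Benjamini-Hochberg adjustment ran over 14779 genes with calls at an adjusted p under 0.05. The step was tested on simulated counts. DESeq2 1.42.0 and limma 3.58.1 were alternatives. Ratios used counts plus 0.5 and an exact two-sided permutation within genotype. Levels in CPM are TMM-scaled. Correlations were run on log2 CPM, prior count 2. Pathway genes were named by a rule, up to 3 per role called in both genotypes by largest change. Adcy7, Gnas, Grk2, Prkca, Prkacb, Prkar2a, Pde4a, Pde4b, Pde4d, Prkce and Plcb4 were added after their values were seen. One pathway gene and 1 of the 6 ratios are not reported here. The 7 genes, the lists and the tests were chosen with earlier results of these data known.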

Additional observations from a re-analysis of the deposited data

How the results depend on the processing

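Across the 5 comparisons, 596 of the alternative log2 fold changes of the 7 genes kept their direction and their side of the threshold, 30 changed sign, 10 lost and 1 gained a call. Scaling to cardiomyocyte markers, which moved the median of all genes to 4.07 and 3.23, turned the MI change of Adrb1 to 1.15, Adra1a to 2.12, Adcy5 to 2.18, Adcy6 to 3.31 and Grk5 to 3.67 in controls, and of Adrb1 to 0.34, Adra1a to 2.79, Adcy5 to 1.62 and Adcy6 to 2.60 in LysMCre mice. With limma-voom, small uncalled values changed sign, namely Adrb1 (-0.43) between genotypes after MI, Adcy6 (0.023) between naive genotypes, and Adrb1 (-0.54) and Adra1b (-0.11) in the interaction; the cause was not tested.

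Stricter thresholds call fewer genes by construction. At an adjusted p under 0.01, 2 of the 7 genes were called in LysMCre mice and 30 pathway genes in controls, and with a log2 change of at least 1, 30 pathway genes were called in each genotype. DESeq2 called 1 pathway gene between genotypes after MI, against 0. With each library left out in turn, pathway calls in controls ran from 29 (without M45, with 1 naive control left, assumed to vary like the other groups) to 46. The genotype difference after MI ranged from -0.90 to 0.79 for Adrb1, -0.39 to 1.20 for Adra1b and -0.022 to 0.722 for Adcy5. That among naive mice ranged from -0.044 to 0.676 for Adra1b, -0.266 to 0.020 for Adcy5, -0.166 to 0.075 for Adcy6 and -0.271 to 0.00082 for Arrb1. The interaction ranged from -1.05 to 0.65 for Adrb1 and -0.67 to 0.94 for Adra1b. The shift of the ratio of Adcy5 to Adcy6 ranged from -1.11 to -0.84 and that of Grk5 to Grk2 from -0.24 to 0.027.

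No paired analysis was possible because no mouse name recurs across groups. With 2 or 3 mice a group, the standard errors of about 0.6 for Adrb1 and Adra1b limit which genotype differences were detectable, and the separation of naive and MI libraries by Y-linked genes cannot be undone.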
